A study of Mus musculus with 12 samples.

Results

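The genes described here are 10 members of the insulin-like growth factor (IGF) system, namely the ligands *Igf1* and *Igf2*, the receptors *Igf1r* and *Igf2r*, and the binding proteins *Igfbp2*, *Igfbp3*, *Igfbp4*, *Igfbp5*, *Igfbp6* and *Igfbp7*. They were chosen by gene symbol, and all 10 were found among the 39179 genes of the count table. Transcripts were measured by 3′ RNA sequencing in mouse pancreatic stellate cells (PSCs), fibroblast-like cells of the pancreas. The study used them as the fibroblasts in cultures that model pancreatic ductal adenocarcinoma (PDA). The PSCs, an immortalised C57BL/6 line carrying mCherry, were cultured in 3 settings with 4 libraries each (12 in all). They were kept for 72 h in a low-serum minimal medium and then sorted on mCherry. In mono-culture they were alone, in the 2-way culture (2W) they were with EGFP-labelled pancreatic cancer cells (PCCs), and in the 3-way culture (3W) they were with the same PCCs and TagBFP-labelled macrophages (MØ). The PCCs were an iKras mouse PDA line and the MØ a commercial mouse line. The total number of cells plated was the same in every flask, so PSCs were fewer where other cells were present. Each cell type was 1 line, so that p-values measure the spread between cultures of the same lines.

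IGF1 and IGF2 are secreted peptides that act through the IGF1 receptor, a tyrosine kinase that signals through IRS adaptors to PI3K and AKT. The IGF2 receptor is the cation-independent mannose 6-phosphate receptor, which carries IGF2 and lysosomal enzymes into the cell. IGF-binding proteins (IGFBPs) hold IGFs outside the cell and are cut by proteases, which releases the ligand, whereas IGFBP7 binds IGFs weakly and is a secreted matrix-associated protein of vessels and stroma. Fibroblasts are a main local source of IGF1 and IGFBPs in many tissues.

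Assigned counts were 4561817 to 8093368 a library, and 1 count equalled 0.116 to 0.245 CPM, the count scaled to a common library size. A called gene is one with an adjusted p under 0.05 in edgeR's quasi-likelihood test over all genes tested. The fibroblast list of 12 genes summed to 8997 to 12784 CPM in mono-culture, 12631 to 19632 in 2W and 7207 to 8737 in 3W. These sums were far above those of the other lists. Of 10 fibroblast genes tested, 6 were called lower and 1 higher in 3W against 2W, and 3 lower and 1 higher in 3W against mono-culture. Of all genes, 4.95% were called lower and 5.73% higher in 3W against 2W, and 13.0% lower and 13.4% higher in 3W against mono-culture. The 13 epithelial genes summed to 1.21 to 3.34 CPM in mono-culture, 75.8 to 149 in 2W and 54.9 to 92.9 in 3W, with *Cdh1* at 50 to 214 counts in the co-cultures and *Epcam* at no more than 3 counts anywhere. The 13 macrophage genes summed to 2.46 to 8.83, 4.65 to 11.8 and 17.6 to 61.3 CPM in the same order. *Ptprc* was at 0 in every mono-culture and 2W library and at 0 to 20 counts in 3W. *Csf1r* was at 0 to 2 counts in mono-culture, 1 to 28 in 2W (28 in replicate 2) and 15 to 27 in 3W. Its mean was 2.35 CPM in 2W, which held no macrophages, and 2.31 CPM in 3W. Replicate 2 of 2W stood apart. It had the fewest counts of all libraries (4561817) and the largest share on the most abundant gene, *Gm26924* (17.9%, against 10.1 to 16.2% elsewhere). Genes called in 2W against mono-culture numbered 111 with it and 233 without it. Among single genes, *Pdgfrb*, a stellate cell receptor, was at 29.7 CPM in replicate 2 and at 127 to 194 CPM in the other 2W libraries. The fibroblast list summed to 19632 CPM in replicate 2, the highest of all 12 libraries, against 12631 to 14550 CPM in the other 2W libraries. *Sparc* alone was at 11194 CPM of that sum, so the sum does not describe the list as a whole.

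The promoter windows of the 4 members that the results turn on are shown because these genes moved in opposite directions. *Igfbp7* was higher in co-culture, and *Igf1*, *Igfbp4* and *Igfbp6* were lower in 3W. Each window runs from 250 bases before to 50 bases after a RefSeq transcription start in GRCm38.p6 and is written 5′ to 3′ on the gene's strand, with motif matches in capitals. The motifs searched on both strands were the STAT site TTCNNNGAA, the AP-1 site TGANTCA, the GC box GGGCGG and the TATA box TATAAA. They are at chr5:77407996-77408295 (minus strand) for *Igfbp7*, chr10:87860861-87861160 (plus) for *Igf1*, chr11:99040994-99041293 (plus) for *Igfbp4* and chr15:102143936-102144235 (plus) for *Igfbp6*.
Igfbp7: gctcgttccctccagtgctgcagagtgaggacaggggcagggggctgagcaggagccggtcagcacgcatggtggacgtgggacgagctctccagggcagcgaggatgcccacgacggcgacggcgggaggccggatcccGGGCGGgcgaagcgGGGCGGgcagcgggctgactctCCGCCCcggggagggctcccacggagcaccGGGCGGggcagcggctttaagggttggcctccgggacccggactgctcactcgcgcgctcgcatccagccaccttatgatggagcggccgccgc
Igf1: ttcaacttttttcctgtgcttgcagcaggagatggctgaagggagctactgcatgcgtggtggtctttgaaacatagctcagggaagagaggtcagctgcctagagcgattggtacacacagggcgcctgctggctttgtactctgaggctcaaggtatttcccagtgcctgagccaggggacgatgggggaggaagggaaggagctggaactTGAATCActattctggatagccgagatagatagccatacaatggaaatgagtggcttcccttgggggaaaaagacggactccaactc
Igfbp4: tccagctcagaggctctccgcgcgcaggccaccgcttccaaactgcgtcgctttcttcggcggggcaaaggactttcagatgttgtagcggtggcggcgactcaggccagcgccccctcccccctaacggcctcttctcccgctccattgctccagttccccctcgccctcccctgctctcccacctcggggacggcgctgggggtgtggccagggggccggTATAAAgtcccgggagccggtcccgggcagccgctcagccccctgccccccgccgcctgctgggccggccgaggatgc
Igfbp6: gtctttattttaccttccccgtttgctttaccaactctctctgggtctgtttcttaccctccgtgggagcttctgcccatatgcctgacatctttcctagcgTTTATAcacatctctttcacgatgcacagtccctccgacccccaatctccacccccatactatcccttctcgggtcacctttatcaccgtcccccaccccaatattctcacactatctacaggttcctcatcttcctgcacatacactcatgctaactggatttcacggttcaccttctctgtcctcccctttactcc

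The *Igfbp7* window held 4 GC boxes, 33 CpG and 73.3% G+C, the boxes lying between -110 and -44. The *Igfbp4* window was alike in composition (27 CpG, 71.3% G+C) and held a TATA box at position -28 from the start. The other windows were poorer in CpG. *Igf1* (6 CpG, 52.3% G+C) had an AP-1 match at -37, and *Igfbp6* (8 CpG, 49.7% G+C) had a TATA match on the opposite strand at -148. Over all 32851 promoter windows the median was 7 CpG and 52.7% G+C, and the share holding a match was 35.7% for the GC box, 13.6% for the TATA box, 7.81% for AP-1 and 8.3% for STAT. No STAT match lay in any of the 14 windows of the 10 members. A match is a string of letters and was not tested as a binding site. The printed *Igf1* start is inside the gene as GENCODE draws it.

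*Igf1* (ENSMUSG00000020053, chromosome 10, 87858265-87937042, plus strand) was the ligand with a measurable level. It was at 54.8, 39.0, 34.8 and 40.0 CPM in mono-culture replicates 1 to 4, at 66.9, 61.8, 42.4 and 61.7 CPM in 2W, and at 9.16, 11.1, 12.2 and 13.4 CPM in 3W. Every 3W library lay below every library of the other cultures, while mono-culture and 2W overlapped. The level in 3W was 5.06-fold lower than in 2W, with a log2 fold change of -2.34 (SE 0.214, edgeR adjusted p = 0.000105). Against mono-culture it was -1.88 (SE 0.207, adjusted p = 3.30e-06), and both calls held in 15 of 15 alternative settings. Between 2W and mono-culture the log2 fold change of 0.48 (SE 0.217, adjusted p = 0.655) was not called. Macrophages also make IGF1. The macrophage list was at its highest in 3W, where *Igf1* was at its lowest, and its part in the *Igf1* level was not tested.

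*Igf2* (ENSMUSG00000048583, chromosome 7, 142650766-142666816, minus strand), the fetal growth ligand of the family, was at 0 to 2 counts in mono-culture, 0 to 4 in 2W and 0 to 6 in 3W, and was too low to test. Its 3′ end is shared with an annotated same-strand gene, *Gm49394*, so that even these counts cannot be placed with certainty. *H19*, the imprinted neighbour of *Igf2*, was low too, with means of 1.68, 5.38 and 3.49 CPM in mono-culture, 2W and 3W. None of its log2 fold changes (1.60 for 2W against mono-culture, 0.97 for 3W against mono-culture and -0.58 for 3W against 2W) was called in edgeR, at adjusted p = 0.786, 0.268 and 0.611. *H19* was at 14.0 CPM in 2W replicate 2, without which the first value was 0.52 and the last 0.47, the opposite direction.

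**Figure D1:**
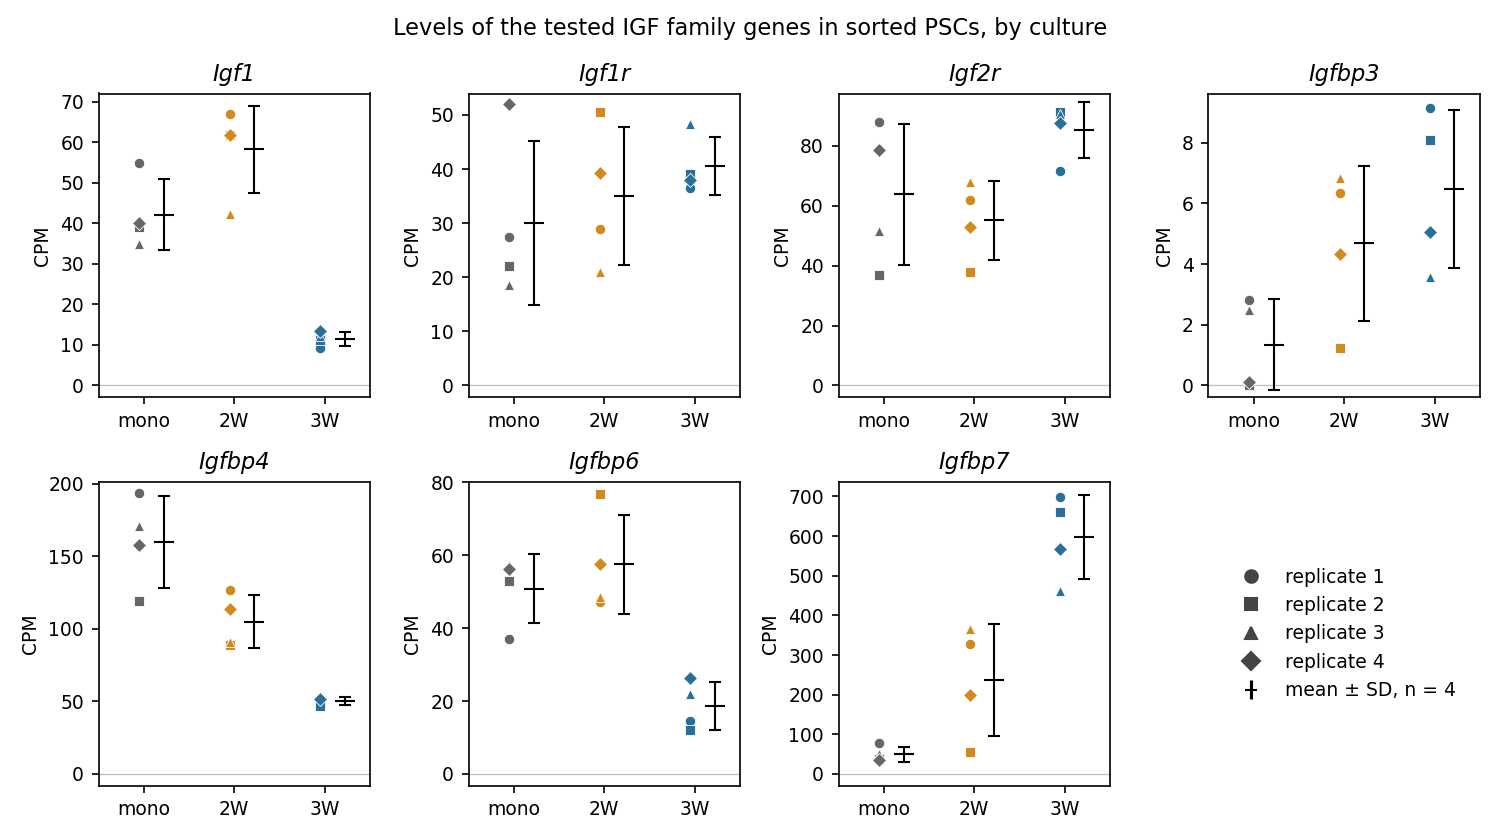
Level of the 7 tested members in each of the 12 libraries, in CPM on linear axes. Points are libraries, marked by replicate number, and the bar and whiskers are the mean and SD of 4 libraries. *Igf1*, *Igfbp4* and *Igfbp6* were lowest in 3W, *Igfbp7* was highest there, and replicate 2 of 2W stayed at 54.5 CPM for *Igfbp7*.

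Neither receptor was called in any comparison. *Igf1r* (ENSMUSG00000005533, chromosome 7, 67952827-68233668, plus strand), the signalling receptor, was at 27.4, 22.1, 18.5 and 52.1 CPM in mono-culture, 29, 50.5, 21 and 39.3 CPM in 2W and 36.5, 39.1, 48.4 and 37.9 CPM in 3W. The libraries of the 3 cultures overlapped, with mono-culture replicate 4 the highest of all 12. Its log2 fold changes were 0.23 (SE 0.349, edgeR adjusted p = 0.999) for 2W against mono-culture, 0.41 (SE 0.257, adjusted p = 0.252) for 3W against mono-culture and 0.22 (SE 0.257, adjusted p = 0.638) for 3W against 2W. Without mono-culture replicate 4 the difference of 3W from mono-culture was 0.83 and was called (adjusted p = 0.00901).

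*Igf2r* (ENSMUSG00000023830, chromosome 17, 12682406-12769664, minus strand) was at 87.9, 37.0, 51.7 and 78.8 CPM in mono-culture, 61.9, 37.8, 67.8 and 52.8 CPM in 2W and 71.5, 91.3, 90.6 and 87.7 CPM in 3W. Every 3W library was above every 2W library, by a log2 fold change of 0.63 (SE 0.196) that missed the threshold (edgeR adjusted p = 0.0635). Of 15 alternatives, 3 gave a call (range of adjusted p 0.0357 to 0.178), namely DESeq2 (adjusted p = 0.0396) and the fits without 2W replicate 2 or 3. The difference was 0.49 (adjusted p = 0.0357) without 2W replicate 2 and 0.74 (adjusted p = 0.0393) without 2W replicate 3. The log2 fold changes of 2W (-0.20, SE 0.281, adjusted p = 0.999) and 3W (0.41, SE 0.218, adjusted p = 0.180) against mono-culture were not called, although the latter was 0.59 (adjusted p = 0.0295) without mono-culture replicate 1. The insulin receptor *Insr*, which forms hybrid receptors with IGF1R, had means of 9.57 ± 2.82, 13.7 ± 2.98 and 16.0 ± 3.23 CPM (SD, n = 4). Its difference of 3W from mono-culture was 0.72 on the log2 scale, just short of a call (adjusted p = 0.0522). It was called without mono-culture replicate 1 (0.81, adjusted p = 0.0299) or 4 (0.86, adjusted p = 0.0421), or without 3W replicate 1 (0.86, adjusted p = 0.0344).

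Binding proteins moved in both directions. *Igfbp7* (ENSMUSG00000036256, chromosome 5, 77349240-77408041, minus strand) was at 77.1, 38.4, 49.5 and 36.2 CPM in mono-culture replicates 1 to 4, at 328, 54.5, 367 and 198 CPM in 2W, and at 699, 660, 462 and 567 CPM in 3W. The 3W libraries did not overlap with either other culture. In 2W, replicates 1, 3 and 4 were above all mono-culture libraries, and replicate 2 was within their range. The means were 50.3 ± 18.8, 237 ± 141 and 597 ± 106 CPM (SD, n = 4), and by mean CPM *Igfbp7* ranked 3438 of 39179 genes in mono-culture, 621 in 2W and 154 in 3W.

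Against mono-culture, *Igfbp7* rose 11.8-fold in 3W, a log2 fold change of 3.56 (SE 0.236, edgeR adjusted p = 9.72e-09) called in 15 of 15 alternative settings. In 2W it rose 4.76-fold, by 2.25 (SE 0.471, adjusted p = 0.0422). That call was held in 7 of 15 alternative settings, with adjusted p from 2.99e-05 to 0.170. Among the 7 was the replicate block, with a log2 fold change of 2.03 (adjusted p = 0.0219). Leaving out any 1 mono-culture library, or 2W replicate 1, 3 or 4, ended it (adjusted p = 0.0602 to 0.170), and it was held only without 2W replicate 2, where the log2 fold change was 2.57 (adjusted p = 5.20e-05). From 2W to 3W the difference of 1.34 (SE 0.439) was not called (adjusted p = 0.0767), and it was called in 5 of 15 alternatives. With DESeq2, 1 of these 5, it was 1.33 (adjusted p = 0.0165). Without 2W replicate 2 it was 1.01 (adjusted p = 0.00326), and without 2W replicate 3 it was 1.63 (adjusted p = 0.0465). In replicate 2 the epithelial list summed to 82.9 CPM, within the 75.8 to 149 CPM of the other 2W libraries. The part of the cancer cell transcripts in the *Igfbp7* level was not tested.

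The 3′ end of *Igfbp7* shares 85 exonic bases with the end of *Polr2b*, an RNA polymerase II subunit gene on the opposite strand, and the strand setting of the counting is not given in the sources used here. *Polr2b* was at 68.0 ± 12.2, 63.9 ± 14.8 and 85.8 ± 11.1 CPM in mono-culture, 2W and 3W (SD, n = 4). It was not called in any comparison (adjusted p = 0.154 for 3W against mono-culture and 0.184 for 3W against 2W in edgeR).

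*Igfbp4* (ENSMUSG00000017493, chromosome 11, 99041244-99054392, plus strand), whose product holds IGFs until the protease PAPP-A cuts it, was the most abundant member in mono-culture. It was at 194, 119, 171 and 158 CPM in mono-culture, 127, 88.8, 90.8 and 114 CPM in 2W and 49.8, 46.7, 52.9 and 51.4 CPM in 3W. The 3W libraries lay close together and below all others, whereas mono-culture and 2W overlapped. *Igfbp4* fell in 3W against mono-culture by 1.68 on the log2 scale (SE 0.165, edgeR adjusted p = 8.33e-07), and against 2W by 1.06 (SE 0.165, adjusted p = 0.00270). Both calls held in 15 of 15 alternatives. The difference of 2W from mono-culture was -0.60 (SE 0.208, adjusted p = 0.370). By mean CPM its rank went from 1013 in mono-culture to 1666 in 2W and 3515 in 3W.

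*Igfbp6* (ENSMUSG00000023046, chromosome 15, 102144362-102149511, plus strand), which prefers IGF2 as its ligand, was at 37.0, 52.9, 57.2 and 56.3 CPM in mono-culture, 47.2, 76.8, 48.6 and 57.5 CPM in 2W and 14.5, 12.1, 21.9 and 26.4 CPM in 3W. Every 3W library was below every other library. *Igfbp6* fell in 3W by 1.45 on the log2 scale against mono-culture (SE 0.236, edgeR adjusted p = 0.000205) and by 1.62 against 2W (SE 0.273, adjusted p = 0.00448), both called in 15 of 15 alternatives. Its level in 2W differed from mono-culture by 0.19 (SE 0.226, adjusted p = 0.999).

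*Igfbp3* (ENSMUSG00000020427, chromosome 11, 7206086-7213923, minus strand), which encodes the main IGF carrier of the circulation, was low throughout. It had 16, 0, 14 and 1 counts in mono-culture, 45, 5, 43 and 27 in 2W and 69, 70, 28 and 39 in 3W, or means of 1.35 ± 1.50, 4.69 ± 2.55 and 6.47 ± 2.60 CPM (SD, n = 4). Each 3W library was above each mono-culture library, and 2W overlapped both. *Igfbp3* rose 4.85-fold in 3W against mono-culture, a log2 fold change of 2.28 (SE 0.682, edgeR adjusted p = 0.0200). The call was lost with DESeq2 (adjusted p = 0.122) and without mono-culture replicate 4 (adjusted p = 0.0505), 3W replicate 1 (0.0612) or 3W replicate 2 (0.0563). The log2 fold change ran from 1.84 without mono-culture replicate 4 to 2.92 without mono-culture replicate 1. The differences of 1.83 for 2W against mono-culture (SE 0.890, adjusted p = 0.724) and 0.44 for 3W against 2W (SE 0.478, adjusted p = 0.602) were not called.

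The neighbouring genes *Igfbp2* (ENSMUSG00000039323, chromosome 1, 72824503-72852474, plus strand) and *Igfbp5* (ENSMUSG00000026185, chromosome 1, 72857932-72874884, minus strand) were near the floor. *Igfbp2* had at most 2 counts in any library. *Igfbp5*, a binding protein of muscle and bone, had 7, 3, 1 and 0 counts in mono-culture, none in 2W and at most 1 in 3W. Neither could be tested. *Igfbp1*, the liver form, had 0 counts in all 12 libraries.

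**Figure D2:**
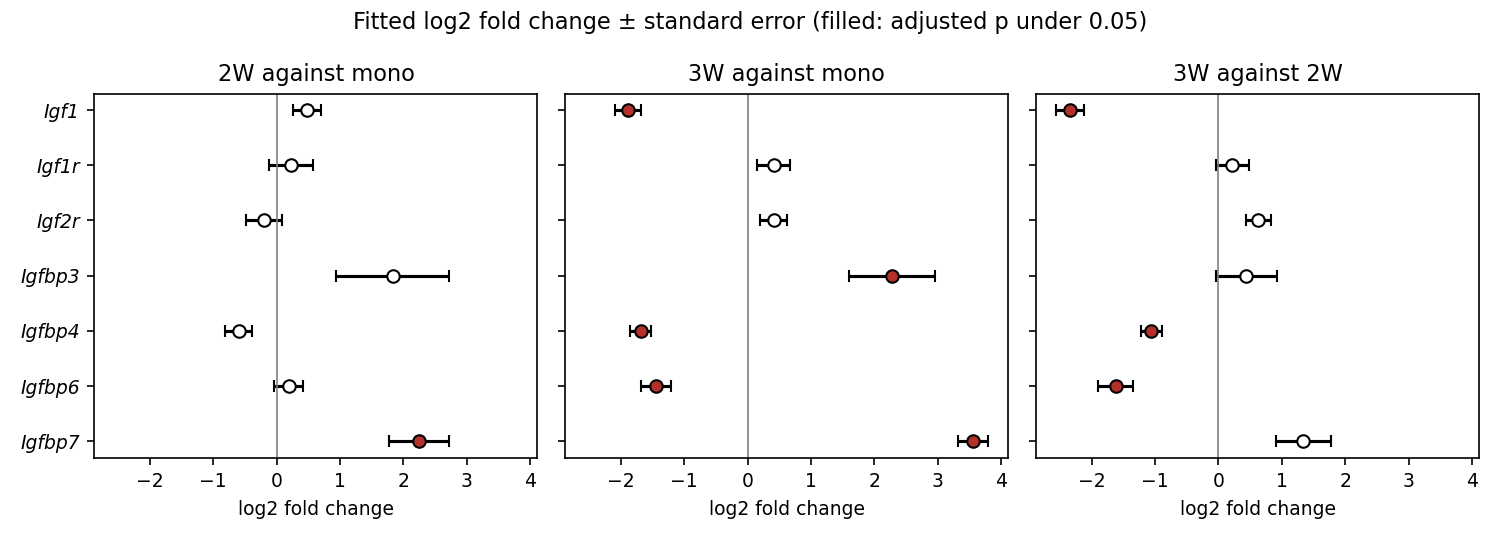
Log2 fold change of the 7 tested members in the 3 comparisons, with whiskers of 1 SE and filled points for called members. *Igfbp7* reached 3.56 in 3W against mono-culture, *Igf1* reached -2.34 in 3W against 2W, and both receptors stayed uncalled.

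Over the family, 3 of the 10 members had at most 7 counts in every library and were not tested, which left *Igf1*, *Igf1r*, *Igf2r*, *Igfbp3*, *Igfbp4*, *Igfbp6* and *Igfbp7*. In 2W against mono-culture 1 of these 7 was called, where 0.991% of 11199 tested genes were called (0.839% higher and 0.152% lower). None of the 7 had libraries that did not overlap, against 5.73% of all genes. In 3W against mono-culture 5 of 7 were called, 2 higher (*Igfbp7* and *Igfbp3*) and 3 lower (*Igf1*, *Igfbp4* and *Igfbp6*), where 26.4% of 11551 genes were called (13.4% higher and 13.0% lower). These 5 did not overlap between the cultures, against 25.9% of all genes. In 3W against 2W 3 of 7 were called, each lower, where 10.7% of 11513 genes were called (5.73% higher and 4.95% lower). Libraries did not overlap for 5 of 7 members, the 3 called and *Igf2r* and *Igfbp7*, against 21.3% of all genes. The 3 comparisons share libraries and are not independent of each other. Sorted PSCs were sequenced in bulk, so that fewer cells expressing a gene and less RNA per cell cannot be told apart.

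Nearly all binding protein counts were on *Igfbp4*, *Igfbp6* and *Igfbp7*. In mono-culture *Igfbp4* held 56.3 to 63.0% of all counts on the 6 binding proteins, *Igfbp7* held 14.4 to 24.7%, and *Igfbp6* held 11.9 to 25.1% and was above *Igfbp7* in replicates 2, 3 and 4. In 3W *Igfbp7* held 85.5 to 90.8%, *Igfbp4* 6.43 to 9.79% and *Igfbp6* 1.67 to 4.06%. In 2W *Igfbp7* was at 64.5, 24.6, 71.5 and 52.9% in replicates 1 to 4. Replicates 1, 3 and 4 lay between the other cultures. Replicate 2 was at the upper end of the mono-culture range, with an interval reaching beyond it (21.9 to 27.5%, Wilson 95%, counting error only). That library held 40.1% *Igfbp4*, below every mono-culture library, and 34.7% *Igfbp6*, above every mono-culture library. Counts of *Igfbp7* per count of *Igfbp4* went from 0.229 to 0.397 in mono-culture to 0.613 to 4.05 in 2W and 8.73 to 14.1 in 3W, with no overlap between cultures. Such ratios within a library do not depend on how libraries are scaled.

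**Figure D3:**
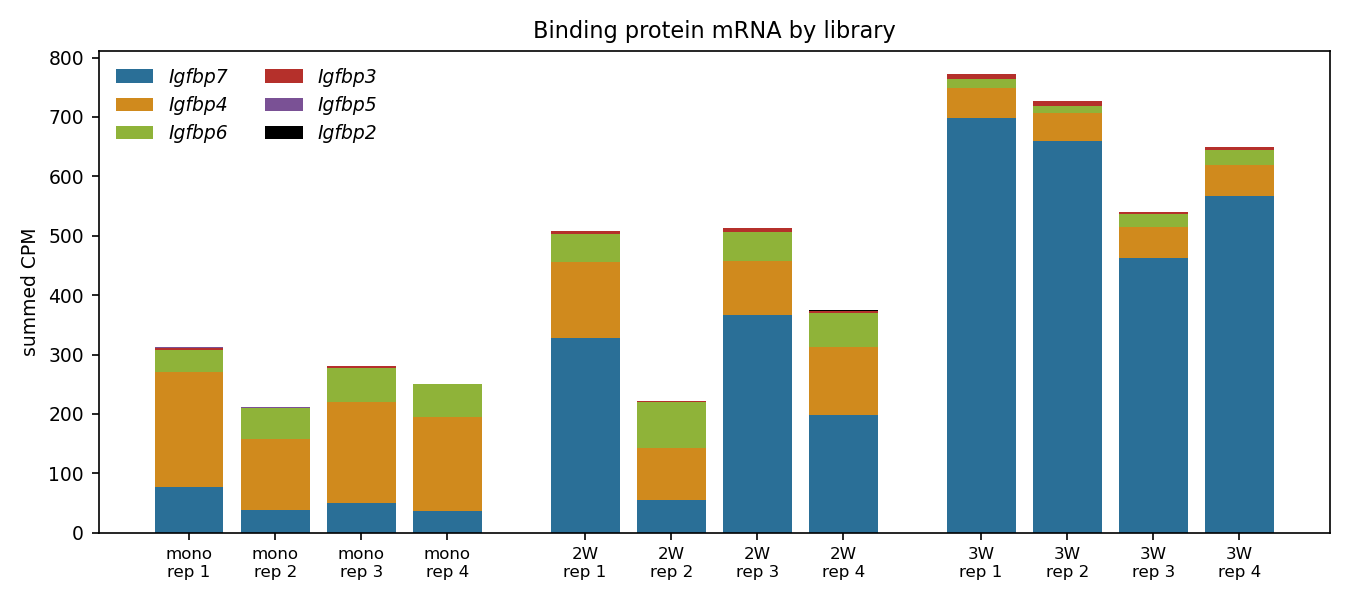
Binding protein transcripts in each of the 12 libraries, as stacked CPM of the 6 IGFBP members. As shares of counts, which the axis does not show, *Igfbp4* held at least 56.3% in each mono-culture library and *Igfbp7* at least 85.5% in each 3W library. Replicate 2 (24.6% *Igfbp7*) was the exception among the 2W libraries.

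The summed level of the 6 binding proteins was 211 to 312 CPM in mono-culture, 221 to 513 in 2W and 541 to 773 in 3W. With *Igfbp7* left out, the sum was 172 to 235 CPM, 146 to 180 CPM and 67.0 to 83.0 CPM in the same order, so that the direction of the sum turned on that 1 gene. For each 100 binding protein counts there were 12.4 to 18.5 *Igf1* counts in mono-culture, 8.25 to 27.9 in 2W and 1.19 to 2.26 in 3W. QuantSeq gives about 1 fragment per transcript, so that these sums and ratios compare transcripts of different genes without a length correction. The number of *Igf2r* counts per *Igf1r* count was 1.51 to 3.21, 0.748 to 3.23 and 1.87 to 2.33, overlapping in all 3 cultures.

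Around the family, a list of 59 other IGF pathway genes was read from the same fits. It had 1 gene called of 49 tested in 2W against mono-culture (*Mmp3*, higher), where 0.991% of all genes tested were called. In 3W against mono-culture 15 of 50 were called, 11 higher and 4 lower, close to the 26.4% of all genes. In 3W against 2W 10 of 51 were called, 7 higher and 3 lower, where 10.7% of all genes were. The median log2 fold change of the list was 0.06, 0.25 and 0.10, where all genes tested had medians of 0.02, 0.012 and 0.0025. With the replicate number as a block, 2W against mono-culture had 2 list genes called, as *Stc1* joined (adjusted p = 0.0439).

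Proteases that cut IGFBPs, and their inhibitors, held the largest differences. Of 11 tested in 3W against mono-culture, 4 rose and 3 fell, where 13.4% of all genes were called higher and 13.0% lower. *Mmp3*, stromelysin-1, was at no more than 3 counts in each mono-culture library, at 3.66, 6.13, 5.57 and 8.35 CPM in 2W and at 112, 127, 31.2 and 35.7 CPM in 3W. Against a floor of 3 counts per mono-culture library it was at least 11.8-fold higher in 2W (edgeR adjusted p = 0.00883) and at least 152-fold higher in 3W (adjusted p = 6.57e-08), and it rose from 2W to 3W by 3.70 on the log2 scale (adjusted p = 0.00115). *Timp1*, an inhibitor of metalloproteinases, was at 64.0 ± 14.8, 101 ± 9.81 and 325 ± 75.1 CPM and rose in 3W by 2.33 against mono-culture (adjusted p = 2.05e-07) and by 1.68 against 2W (adjusted p = 0.000472).

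*Adamts1*, a metalloproteinase with thrombospondin motifs, ran the other way, at 667 ± 122, 365 ± 132 and 103 ± 33.4 CPM (SD, n = 4). It fell in 3W by 2.70 on the log2 scale against mono-culture (edgeR adjusted p = 1.04e-07) and by 1.82 against 2W (adjusted p = 0.00517), while the difference of 2W from mono-culture (-0.86, adjusted p = 0.314) was not called. The serine protease *Htra1* was at 85.4 ± 16.8, 49.3 ± 1.98 and 36.5 ± 6.33 CPM and fell in 3W against mono-culture by 1.24 (adjusted p = 8.30e-05). Its relative *Htra3* fell in 3W by 0.86 against mono-culture (adjusted p = 0.0198) and by 1.10 against 2W (adjusted p = 0.0183). The first call was lost without 3W replicate 2 or 4 (adjusted p = 0.0607 and 0.0585), and the second without 2W replicate 4 or 3W replicate 1, 2 or 4 (adjusted p = 0.0603 to 0.0730).

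The pappalysin inhibitor *Stc1* had means of 0.219, 4.51 ± 1.84 and 4.13 ± 2.20 CPM (SD, n = 4), with all 5 mono-culture counts in replicate 1, and rose in 3W against mono-culture by 4.20 on the log2 scale (edgeR adjusted p = 0.00160). Its difference of 4.33 for 2W against mono-culture missed the threshold (adjusted p = 0.0512). It was called with DESeq2 (adjusted p = 0.000621), and in edgeR without 2W replicate 2 (adjusted p = 0.0176) or mono-culture replicate 1 (adjusted p = 0.0222). Without the latter the fitted value was 7.79, so that the size of these differences depends on the prior count and on 1 library. *Pappa* itself, the IGFBP4 protease, was not called, at log2 fold changes of 0.18, -0.60 and -0.75 for 2W against mono-culture, 3W against mono-culture and 3W against 2W (adjusted p = 0.999, 0.260 and 0.248). *Adam12*, which cuts IGFBP3 and IGFBP5, had means of 0.402, 1.32 and 2.68 CPM and rose in 3W against mono-culture by 2.58 (adjusted p = 0.00531). Its difference of 1.08 between 3W and 2W was not called (adjusted p = 0.204), but was 1.62 (adjusted p = 0.0439) without 2W replicate 2.

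**Figure D4:**
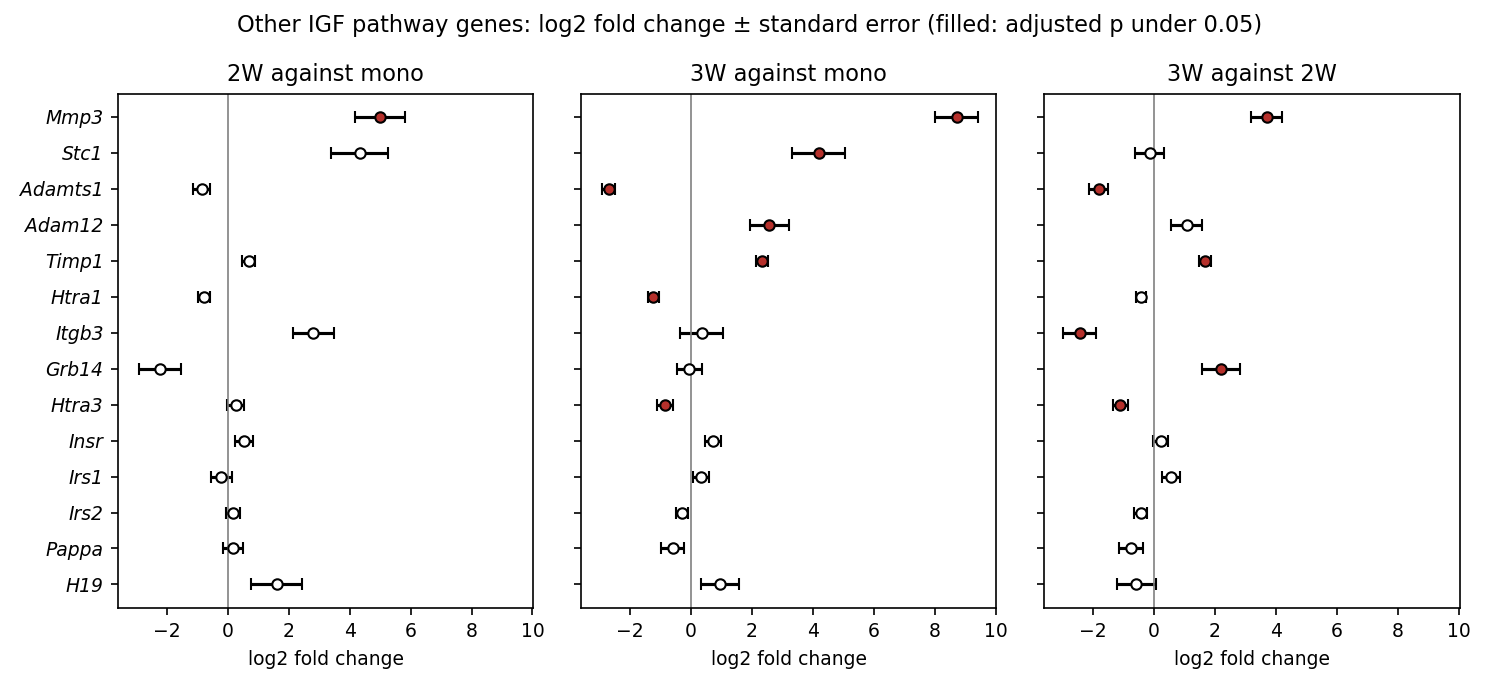
Log2 fold change of named IGF pathway genes in the 3 comparisons, with whiskers of 1 SE and filled points for called genes (*Adam12* was not tested in 2W against mono-culture). *Mmp3* and *Timp1* lay on the higher side in 3W and *Adamts1* and *Htra1* on the lower, and the position of *Mmp3* against mono-culture depends on the prior count because its mono-culture libraries held at most 3 counts each.

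Downstream of the receptors, adaptors, kinases, phosphatases and FOXO factors were read from the same fits. None of the 9 adaptors tested was called against mono-culture, where 0.991% of all genes tested were called in 2W and 26.4% in 3W. The insulin receptor substrates *Irs1* (log2 fold changes of -0.21, 0.34 and 0.57 for 2W against mono-culture, 3W against mono-culture and 3W against 2W, edgeR adjusted p = 0.999, 0.371 and 0.244) and *Irs2* (0.17, -0.29 and -0.43, adjusted p = 0.999, 0.304 and 0.221) were not called in any comparison. *Grb14*, an adaptor that restrains the insulin receptor, was at 4.38, 0.867 and 4.28 CPM and was higher in 3W than in 2W by 2.20 (adjusted p = 0.0426), a call held only without 2W replicate 1 or 2 among the fits that left out 1 library (adjusted p up to 0.131). Of 16 kinases and phosphatases tested, 3 were called higher and 1 lower in 3W against mono-culture, each by less than 1 on the log2 scale, a share near the 26.4% of all genes. Among them were *Pik3ca*, the catalytic PI3K subunit (0.57), *Rptor*, a subunit of mTORC1 (0.93), and the kinase *Akt2* (-0.72), and each of these 3 calls was lost when at least 1 library was left out. Of the 3 FOXO genes, *Foxo3* rose in 3W by 0.65 against mono-culture (adjusted p = 0.0138) and by 1.09 against 2W (adjusted p = 0.00407).

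Of 6 other receptors and binding partners tested, *Lrp1* and *Itgav* were called higher in 3W against mono-culture and none lower, where 26.4% of all genes were called. The integrin subunit *Itgb3*, which IGF1 can bind as part of the αvβ3 integrin, was at 6.34, 18.6, 5.89 and 8.99 CPM in 2W and at no more than 3.64 CPM elsewhere. From 2W to 3W it fell by 2.44 on the log2 scale (edgeR adjusted p = 0.0166), a call lost without 3W replicate 1 (adjusted p = 0.0626) or 3W replicate 2 (adjusted p = 0.0663). Its difference of 2.81 for 2W against mono-culture was not called (adjusted p = 0.0907). That difference was called in 3 of 14 alternatives, among them DESeq2 (2.84, adjusted p = 0.000850). *Itgav*, the other subunit of that integrin, rose in 3W against mono-culture by 0.88 (adjusted p = 0.000754). Its difference between 3W and 2W was 0.052 (adjusted p = 0.922). *Lrp1*, an endocytic receptor that binds IGFBP3, rose in 3W against mono-culture by 1.23 (adjusted p = 0.00538), held with each library left out in turn. Against 2W its difference was 0.71 (adjusted p = 0.0411), held in 7 of 15 alternatives, among them DESeq2 (adjusted p = 0.0135), and in 2 of the 8 fits that left out 1 library. The protease *Furin*, which matures the IGF ligands and the IGF1 receptor, rose in 3W against mono-culture by 0.82 (adjusted p = 0.00489).

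The genes whose pattern over the 12 libraries was most like that of *Igf1* were *Col11a1*, *Fbln5*, *Map3k7cl*, *Gm13705* and *Enpp3*. The measure was the root mean square difference of log2 CPM after centring each gene on its mean, which was 0.383 to 0.425 for these 5 genes and 1.12 for the median of 11512 genes. *Col11a1*, a fibrillar collagen chain, had means of 74.9, 123 and 22.7 CPM in mono-culture, 2W and 3W, and *Fbln5*, an elastic fibre protein, had means of 218, 208 and 66.5 CPM.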

How the data were processed

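RNA was sequenced with the QuantSeq 3′ kit. The authors aligned reads to GRCm38 with STAR and deposited whole-number counts per gene from featureCounts. The study's methods speak of normalised read counts, but the values are whole numbers with a different total in each library and were treated as raw counts. Use of molecular identifiers is not given in the sources used here, so intervals and floors cover counting error only. Replicates came from the labels. The members and gene lists were chosen with earlier results of these data known. Each pair of cultures was fitted over all genes passing filterByExpr with edgeR 4.0.16 (R 4.3.3, TMM, quasi-likelihood test, Benjamini-Hochberg adjustment, prior count 0.125). SE is the size of the log2 fold change over the square root of F. CPM used TMM factors over 12 libraries. Alternatives were other scaling, filters, all 12 libraries, leaving out each library, a replicate block and DESeq2 1.42.0, the tool of the study's methods. Scripts were tested on simulated counts. Same-numbered libraries of 2W and mono-culture deviated together (correlations of 0.104 to 0.355). The own number was the best match for replicates 1 and 2 but not for 3 and 4. The main fits therefore used no pairing, and the replicate block was an alternative only. Named were all 10 members, 6 fixed pathway genes (*Insr*, *Irs1*, *Irs2*, *Pappa*, *Igfbp1* and *H19*), in each comparison the 6 called pathway genes with the largest fold changes, and the 5 genes most like a member called in 3W against 2W. *Furin*, *Lrp1*, *Itgav*, *Pik3ca*, *Rptor*, *Akt2*, *Foxo3*, *Polr2b* and *Gm49394* were added after their values were seen. Positions are from GENCODE M21 on GRCm38 and promoters from RefSeq on GRCm38.p6, with all 10 members matched.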

Additional observations from a re-analysis of the deposited data

How the results depend on the processing

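The choice of library and test moved the counts of called genes more than the directions. Members called in 2W against mono-culture numbered 1, and 0 with at least 10 counts in every library, with 0 to 1 when 1 library was left out. All genes called there numbered 111, against 177 with no filter, 57 with at least 10 counts, 262 with all 12 libraries in one fit, 275 with DESeq2 and 61 to 233 when 1 library was left out, the highest without 2W replicate 2. Pathway list genes numbered 1, against 3, 0, 5 and 5 in the same order, 2 with the replicate block, and 1 to 3 with 1 library left out. In 3W against mono-culture, leaving out 1 library gave 4 to 6 members, 11 to 26 pathway genes (26 without mono-culture replicate 1) and 2228 to 4266 of all genes. In 3W against 2W, members numbered 3, against 5 with DESeq2 and 3 to 5 with 1 library left out (5 without 2W replicate 2 or 3). All genes numbered 1230, against 752 with the replicate block and 497 to 2107 with 1 library left out. Pathway genes numbered 10, against 6 with the replicate block and 4 to 17 with 1 library left out. In the comparisons of 3W the numbers do not pair the libraries (correlations of -0.0563 to 0.155). The block changed no call of a member. *Igf1r* in 2W against mono-culture turned from 0.23 to -0.019 without 2W replicate 2 and was 0.63 without mono-culture replicate 4. The causes were not tested. Depth limits *Igf2*, *Igfbp2*, *Igfbp5* and, in mono-culture, *Igfbp3*.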
